A study of Rattus norvegicus with 20 samples.

Results

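The renin-angiotensin system was followed through 7 genes in rat liver: the hormone precursor *Agt*, the peptidases *Ace* and *Enpep*, the receptors *Agtr1a*, *Agtr1b* and *Agtr2*, and the receptor-associated protein *Agtrap*. They were chosen by symbol, and the array annotation gave them 11 ProbeSets, each with 1 gene symbol, of the 15923 ProbeSets on the Affymetrix RAE230A array. By the same annotation 10412 genes had a ProbeSet of their own. Livers of 20 male rats aged 10 to 12 weeks were measured, 1 rat per array and 4 rats per group. H/W, a random-bred closed colony of Han/Wistar (Kuopio), and Line-A carry a variant of the aryl hydrocarbon receptor gene *Ahr*. L-E, the in-bred Long-Evans (Turku/AB), Line-C, and S-D, the out-bred Sprague-Dawley, carry the wild-type gene. Both lines descend from crosses between L-E and H/W, so they share much of their genome with those strains, and Line-A and Line-C differ at other loci as well as at *Ahr*. All rats had been given corn oil by gavage 19 hours earlier, although the sample titles of S-D say only control. No animal received dioxin or an angiotensin drug.

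Angiotensinogen, the product of *Agt*, is made mainly by hepatocytes and secreted into the blood. Renin cuts it to angiotensin I, and angiotensin-converting enzyme, the product of *Ace*, on vascular endothelium and above all in the lung, turns angiotensin I into angiotensin II. Angiotensin II acts through the AT1 receptor, which in rats and mice comes from a pair of genes, *Agtr1a* and *Agtr1b*, and through the AT2 receptor encoded by *Agtr2*. The *Agtr1a* form is the main one of the rodent liver, where it lets angiotensin II mobilise calcium and glycogen in hepatocytes. Glutamyl aminopeptidase, the product of *Enpep*, trims angiotensin II to angiotensin III, and *Agtrap* encodes a membrane protein that binds the tail of the AT1 receptor and promotes its internalisation.

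The promoter windows of the 2 AT1 receptor genes are shown because *Agtr1a* spanned a wide range between the groups while *Agtr1b* stayed at low signal in all of them. A further reason is that the study, beside strain and line, also modelled the type of *Ahr*, the gene of a transcription factor. The sequences are the 250 bases before the annotated start in the RefSeq table of build GRCr8, from the reference rat genome and not from the strains measured. *Agtr1a* lies on the minus strand at chr17:34435433-34435682 and *Agtr1b* on the minus strand at chr2:104849263-104849512, both read 5′ to 3′ along the gene. Capitals mark a TATA box (TATAAA) and GC boxes (GGGCGG) in the first. In the second they mark CCAAT boxes (CCAAT), which lie on the other strand.
Agtr1a: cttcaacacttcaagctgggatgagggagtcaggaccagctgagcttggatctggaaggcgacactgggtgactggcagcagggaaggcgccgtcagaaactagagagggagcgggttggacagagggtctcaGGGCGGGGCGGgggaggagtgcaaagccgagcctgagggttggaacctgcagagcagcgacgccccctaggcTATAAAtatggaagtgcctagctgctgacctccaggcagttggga
Agtr1b: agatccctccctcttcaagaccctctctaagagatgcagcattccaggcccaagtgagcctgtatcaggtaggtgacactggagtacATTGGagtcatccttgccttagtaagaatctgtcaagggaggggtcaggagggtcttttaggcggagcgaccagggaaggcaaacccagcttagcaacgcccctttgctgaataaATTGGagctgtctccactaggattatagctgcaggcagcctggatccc
The *Agtr1a* window held 1 TATA box, whose first letter lies 45 bases before the start, and 2 overlapping GC boxes at 117 and 112 bases. The *Agtr1b* window held 2 CCAAT boxes, at 163 and 48 bases, and neither a TATA box nor a GC box. All motifs were searched for on both strands, together with the core of the sequence that AHR binds with its partner ARNT (GCGTG), which was found in neither window. Of 33469 promoter windows of the same length, 25.9% held the AHR core, 12.9% a TATA box, 30.5% a GC box and 34.0% a CCAAT box. Of the 7 genes, 6 had an entry, and *Agt* had none. Among these 6 the AHR core occurred in *Agtrap* alone, once, and *Enpep* held none of the motifs searched. A match is only a run of letters, and a window without one says nothing of AHR or any other factor elsewhere in the gene.

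The values are log2 signals made by GC-RMA, in which 1 unit is a doubling. Genes with a signal of 4 or more were read as expressed, and 4 is called the limit of expression. Of the member ProbeSets 4 had a group mean at or above it, the one of *Agt*, 1 of the pair of *Enpep* and both of *Agtr1a*, which are called the brighter and the dimmer *Agtr1a* ProbeSet. The other 7 lay below it on all 20 arrays, including both ProbeSets of *Ace*, both of *Agtr2*, the second of *Enpep* and the only ones of *Agtr1b* and *Agtrap*. Over the whole array 7480 ProbeSets reached a group mean of 4. The array medians lay between 3.47 and 3.69, and replicate 3 of H/W had the lowest. Signals of different ProbeSets do not rank genes by abundance, since probes differ in how well they bind.

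**Figure D1:**
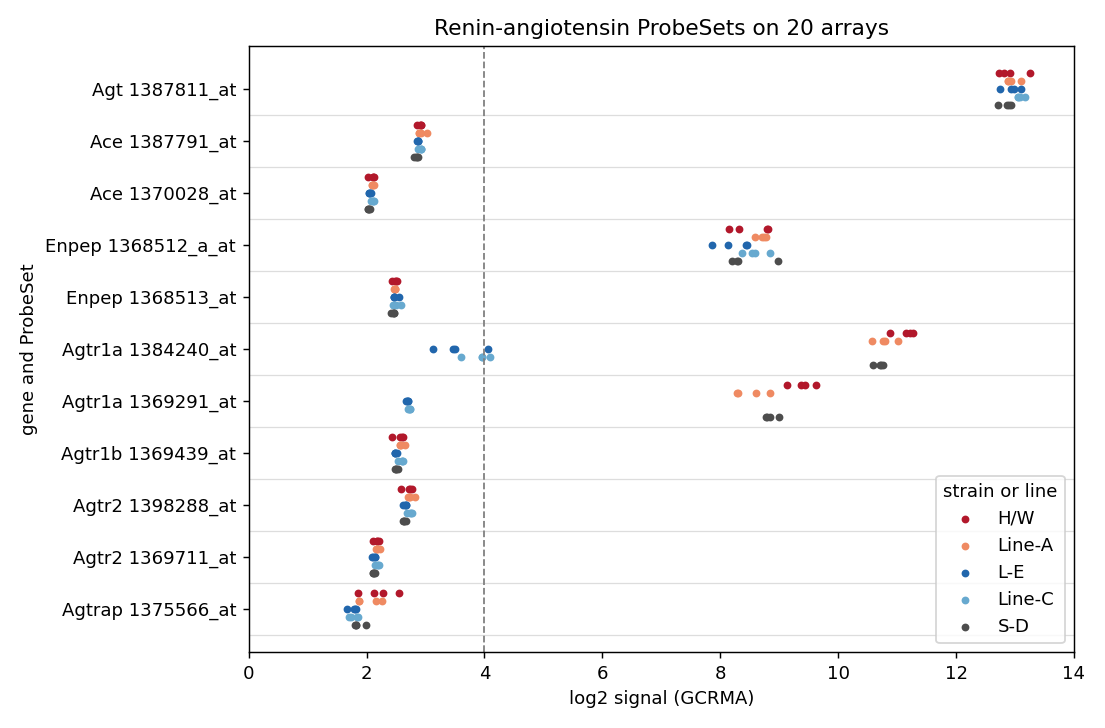
Log2 signal (x axis, GC-RMA) of the 11 member ProbeSets (rows) on the 20 arrays, 1 point per rat, coloured by strain or line; the dashed line is the limit of expression at 4. *Agt* stays between 12.71 and 13.26 on all arrays, whereas both *Agtr1a* ProbeSets fall into a high set (H/W, Line-A and S-D) and a low set (L-E and Line-C).

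The labelled tissue was checked against markers. The mean signal of 9 hepatocyte markers on the array lay between 14.85 and 15.04 on all arrays. None of the 5 mast cell markers, which include the chymase gene *Cma1*, had a group mean of 4. Markers of other cells differed between groups. The mean of 10 stellate cell and fibroblast markers with a group mean of at least 4 reached at most 6.63 in the other 4 groups and was 6.63 to 7.45 on the S-D arrays, so that the highest Line-C array and the lowest S-D array overlapped. The mean of 5 endothelial markers reached at most 8.19 in the other 4 groups and was 8.40 to 8.54 in S-D. The mean of 7 Kupffer cell and macrophage markers was lowest in Line-A, at 7.55 to 7.70. *Ahr* itself read below the limit in every group mean, at 2.65 to 3.61 on 1 ProbeSet and at 3.07 to 3.14 on the other. Arrays were scanned on 5 days. H/W and L-E shared days 1 and 2, 1 H/W array stood alone on day 3, all Line-A and Line-C arrays fell on day 4, and all S-D arrays fell on day 5. Strain and scan day therefore cannot be told apart in any pair that sets a line against a parent strain, or S-D against another group.

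*Agt*, the precursor, passed the test in none of the 10 pairs of groups. Its signal was 12.81, 12.91, 13.26 and 12.74 in H/W, 12.89, 12.89, 12.92 and 13.11 in Line-A, 12.74, 12.93, 12.98 and 13.11 in L-E, 13.08, 13.05, 13.05 and 13.17 in Line-C, and 12.71, 12.87, 12.93 and 12.90 in S-D. The groups overlapped in every pair except Line-C against S-D. Group means were 13.09 in Line-C, 12.95 in Line-A, 12.94 in L-E, 12.93 in H/W and 12.85 in S-D, and no neighbours in that order passed the test. The difference H/W minus L-E was -0.01 with a 95% interval of -0.21 to 0.20, and the difference Line-A minus Line-C was -0.14 with an interval of -0.34 to 0.07. A 2-fold change, which is 1 log2 unit, lay outside both intervals. Line-C stood 0.23 above S-D (adjusted p = 0.0791, interval 0.03 to 0.44), and that difference was called under array weights (adjusted p = 0.0035), with only these groups in the fit (adjusted p = 0.0285) and without H/W replicate 3 (adjusted p = 0.0181). Unless another test is named, p-values are two-sided, come from limma and were adjusted over all 15923 ProbeSets by the method of Benjamini and Hochberg, with a call at 5% FDR. Livers were measured whole, and fewer cells of a type and less mRNA per cell cannot be told apart in any value given here.

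*Ace* read below the limit of expression. Its signals were 2.8 to 3.03 on 1 ProbeSet and 2.02 to 2.13 on the other over all arrays. Between the variant and wild-type groups H/W minus L-E and Line-A minus Line-C neither ProbeSet was called. Both were called in Line-A minus S-D, by 0.09 and 0.07, but 37.5% of all ProbeSets were called in that pair, and signals this low carry no ordering of mRNA levels. Neither call remained with equal array medians, with scan day as a random block or at 1% FDR.

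*Enpep*, which removes the first residue of angiotensin II, was well above the limit on 1 of its ProbeSets. There the signal was 8.81, 8.16, 8.79 and 8.31 in H/W, 8.59, 8.70, 8.77 and 8.74 in Line-A, 8.13, 7.85, 8.46 and 8.43 in L-E, 8.84, 8.54, 8.58 and 8.37 in Line-C, and 8.98, 8.21, 8.28 and 8.31 in S-D. Line-A was the tightest group, and only Line-A and L-E did not overlap. No pair was called. The group means ran from 8.70 in Line-A through 8.58 for Line-C, 8.52 for H/W and 8.44 for S-D to 8.22 for L-E, and no neighbours in that order passed the test. Line-A minus L-E was 0.48 (interval 0.09 to 0.87, adjusted p = 0.0565), where 27.5% of all ProbeSets were called. That difference was called with a variance trend (adjusted p = 0.0448), array weights (0.0439) and the replicate block (0.0455), and without S-D replicate 1 (0.0390) or H/W replicate 3 (0.0361). The second ProbeSet of *Enpep* read 2.41 to 2.59 on all arrays and was called in no pair. H/W minus L-E on the expressed ProbeSet was 0.30 with an interval of -0.09 to 0.69, and Line-A minus Line-C was 0.12 with an interval of -0.27 to 0.51.

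*Agtr1a* split the 5 groups as no other member did. On the brighter ProbeSet the signal was 11.27, 11.14, 10.87 and 11.22 in H/W, 11.02, 10.58, 10.79 and 10.76 in Line-A, 4.07, 3.47, 3.5 and 3.12 in L-E, 3.96, 4.10, 3.96 and 3.59 in Line-C, and 10.73, 10.76, 10.59 and 10.71 in S-D. On the dimmer one it was 9.37, 9.62, 9.44 and 9.14 in H/W, 8.85, 8.30, 8.61 and 8.28 in Line-A, 2.70, 2.69, 2.70 and 2.67 in L-E, 2.70, 2.74, 2.73 and 2.73 in Line-C, and 8.99, 8.80, 8.84 and 8.78 in S-D. Every array of H/W, Line-A and S-D was far above every array of L-E and Line-C on both ProbeSets. L-E and Line-C were at or near the limit on the first ProbeSet and under it on all 8 arrays on the second.

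**Figure D2:**
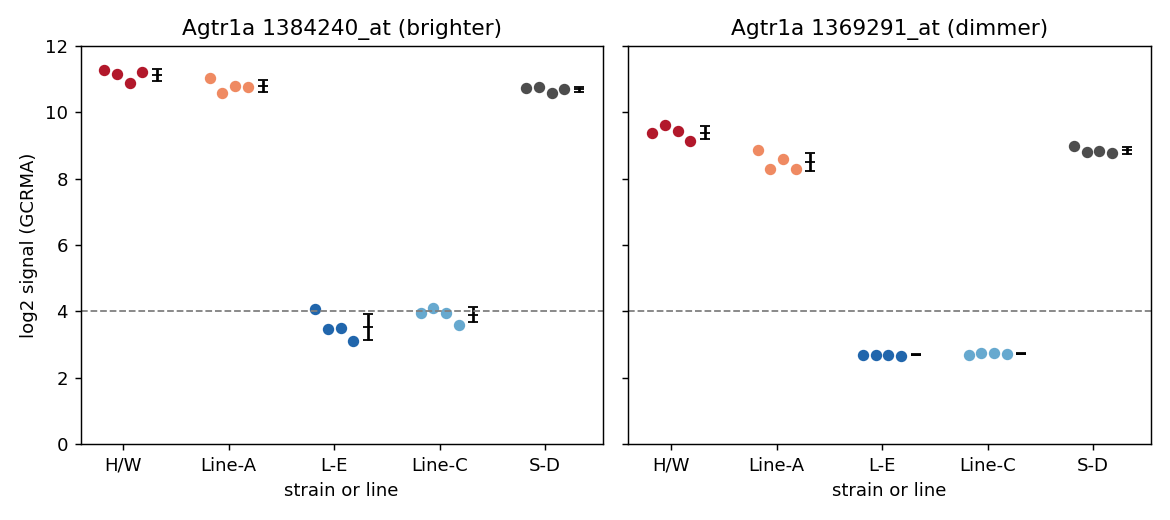
Log2 signal (y axis, GC-RMA) of the 2 *Agtr1a* ProbeSets in the 5 strains and lines (x axis), 1 point per rat, with the group mean and SD (n = 4) beside the points and the limit of expression at 4 dashed. The S-D rats, with wild-type *Ahr*, sit at 10.70 ± 0.07 and 8.85 ± 0.10, with the variant carriers and not with L-E and Line-C.

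Between the parent strains, H/W stood above L-E by 7.58 (SE 0.16, adjusted p = 4.10e-15) on the brighter ProbeSet and by 6.70 (SE 0.11, adjusted p = 1.19e-16) on the dimmer one. These were the second and the first ProbeSet of the array by p in that pair. Between the lines, Line-A stood above Line-C by 6.88 (SE 0.16, adjusted p = 1.98e-14) and by 5.78 (SE 0.11, adjusted p = 1.30e-15), again the second and the first. Because the means of L-E and Line-C were below the limit, the fold differences are lower bounds. With arrays below the limit set to 4, *Agtr1a* in H/W was at least 138-fold higher than in L-E and in Line-A at least 109-fold higher than in Line-C on the brighter ProbeSet, and at least 41.9-fold and at least 22.8-fold on the dimmer one. Of all ProbeSets, 3.31% were called in H/W minus L-E and 1.39% in Line-A minus Line-C. Of the 11 member ProbeSets, 3 were called in H/W minus L-E (both of *Agtr1a* and that of *Agtrap*) and 2 in Line-A minus Line-C (both of *Agtr1a*).

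The difference was as large within scan days. Within day 2, 2 H/W and 3 L-E arrays differed by 7.64 on the brighter ProbeSet (adjusted p = 0.00131) and by 6.84 on the dimmer one (adjusted p = 0.000165). Both lines were scanned on day 4, so the line contrast above was also a within-day one, and a fit to those 8 arrays alone gave the same differences (adjusted p = 1.62e-06 for each ProbeSet). Arrays were not identical, and the highest correlation between any 2 of the 20 was 0.9975.

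Wild-type S-D was high as well. L-E lay below S-D by 7.16 and 6.16, and Line-C lay below S-D by 6.79 and 6.13, on the brighter and the dimmer ProbeSet in turn (largest adjusted p = 2.44e-14). At the limit of 4 the S-D signal was at least 103-fold higher than L-E and at least 102-fold higher than Line-C on the first, and at least 28.9-fold higher than each on the second. Called ProbeSets made up 9.59% of the array in L-E minus S-D and 12.2% in Line-C minus S-D, and in both pairs the 2 *Agtr1a* ProbeSets were the only members called. The wild-type *Ahr* groups held both the lowest *Agtr1a* signals and signals within 0.09 of those of a variant line, as Line-A minus S-D was 0.09 (interval -0.25 to 0.42, adjusted p = 0.658) on the brighter ProbeSet.

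The model of the study that splits each group into strain terms and an *Ahr* term gave an *Ahr* coefficient of 6.88 (SE 0.15, adjusted p = 3.76e-15) for the brighter ProbeSet and of 5.78 (SE 0.18, adjusted p = 4.66e-13) for the dimmer one. They ranked first and second of all ProbeSets, of which 0.659% were called, and none of the other 9 member ProbeSets was called. In that model S-D has a term of its own, so its arrays do not enter the coefficient, and with 4 arrays in each group the coefficient equals Line-A minus Line-C. With S-D counted among the wild-type groups, a contrast added after its values were seen, H/W and Line-A together stood above L-E, Line-C and S-D by 4.91 and 4.19. Of the 3 wild-type groups in that contrast, 2 lay near the limit and 1 lay with the carriers.

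Among the 3 high groups the 2 ProbeSets gave different orders. On the brighter ProbeSet the means were 11.12 ± 0.17 in H/W, 10.79 ± 0.18 in Line-A and 10.70 ± 0.07 in S-D (SD, n = 4), and neither neighbouring pair nor H/W against S-D was called. On the dimmer one they were 9.39 ± 0.20 in H/W, 8.51 ± 0.27 in Line-A and 8.85 ± 0.10 in S-D. There Line-A lay below H/W by 0.88 (SE 0.11, adjusted p = 0.000107, where 6.39% of ProbeSets were called), H/W lay above S-D by 0.54 (adjusted p = 0.0049, where 6.83% were called), and Line-A lay below S-D by 0.34 (adjusted p = 0.0327). The last call was lost at 1% FDR, when only these groups were fitted (adjusted p = 0.0627), with scan day as a random block (0.162) and without any 1 of S-D replicates 1, 2 and 3 or Line-A replicates 2 and 4 (0.0581 to 0.114). H/W minus S-D on the brighter ProbeSet was 0.43 (adjusted p = 0.129) and was called under array weights (0.0146), with only these groups fitted (0.0471) and without H/W replicate 3 (0.0242) or L-E replicate 1 (0.0460). Between the low groups, where 15.8% of ProbeSets were called, Line-C was 0.36 above L-E on the brighter ProbeSet (adjusted p = 0.0958), called under array weights (0.0333) and without L-E replicate 1 (0.0198), and 0.03 above it on the dimmer one (adjusted p = 0.811), a sign that turned after quantile normalization (-0.0273) and with equal medians (-0.0492).

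The gap between the 2 *Agtr1a* ProbeSets within an array, brighter minus dimmer, was 1.73 ± 0.30 in H/W, 2.28 ± 0.15 in Line-A and 1.85 ± 0.12 in S-D (SD, n = 4). It was wider in Line-A than in each of the other 2 groups on every array. H/W minus Line-A was -0.55 and Line-A minus S-D was 0.43, each with p = 0.0286 in a two-sided exact permutation test, the smallest p that 4 against 4 arrays allow, and p = 0.0429 adjusted over the 3 comparisons. H/W minus S-D was -0.11 (exact p = 0.486). The gap compares 2 ProbeSets within each array and is not an abundance.

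The contrast of variant and wild-type was larger between the parents than between the lines on the dimmer *Agtr1a* ProbeSet, by 0.92 (SE 0.15, adjusted p = 0.00316, where 2.01% of ProbeSets were called), and by 0.70 on the brighter ProbeSet (adjusted p = 0.146). The second was called under array weights (0.0085) and without L-E replicate 1 (0.0165). With L-E and Line-C under the limit on the dimmer one, the 0.92 there is made up almost wholly of the 0.88 between H/W and Line-A. On the brighter ProbeSet the 0.70 is the sum of 0.34 between H/W and Line-A and of 0.36 between Line-C and L-E, whose means are both below the limit. On a scale where the lower parent, L-E, is 0 and the higher, H/W, is 1, Line-A stood at 0.956 and Line-C at 0.048 on the brighter ProbeSet, and Line-A at 0.868 and Line-C at 0.0052 on the dimmer one. The means of L-E and Line-C are below the limit on both ProbeSets, so that these positions are those of the signals, and the place of Line-C beside L-E is not resolved.

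Of the variance of *Agtr1a* over the 20 arrays, the share within groups, W/T, was 0.0035 on the brighter ProbeSet and 0.0021 on the dimmer one, ranks 4 and 2 from the bottom of 15923 ProbeSets. It was 0.00205 on the brighter ProbeSet without L-E replicate 1 and 0.00129 on the dimmer one without Line-A replicate 1. The precursor and the peptidase were above the median of 0.616 for ProbeSets with a mean signal of at least 4, with 0.904 for *Agt* (jackknife SE 0.35) and 0.838 for the expressed ProbeSet of *Enpep*. Without H/W replicate 3 the value of *Agt* was 0.598, below that median. By the F-test over the 5 groups at 0.1% FDR, 4.6% of all ProbeSets and 9.53% of those with a group mean of at least 4 were called. Both *Agtr1a* ProbeSets were called there, ranking 4 and 2, and none of the other 9 members was.

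**Figure D3:**
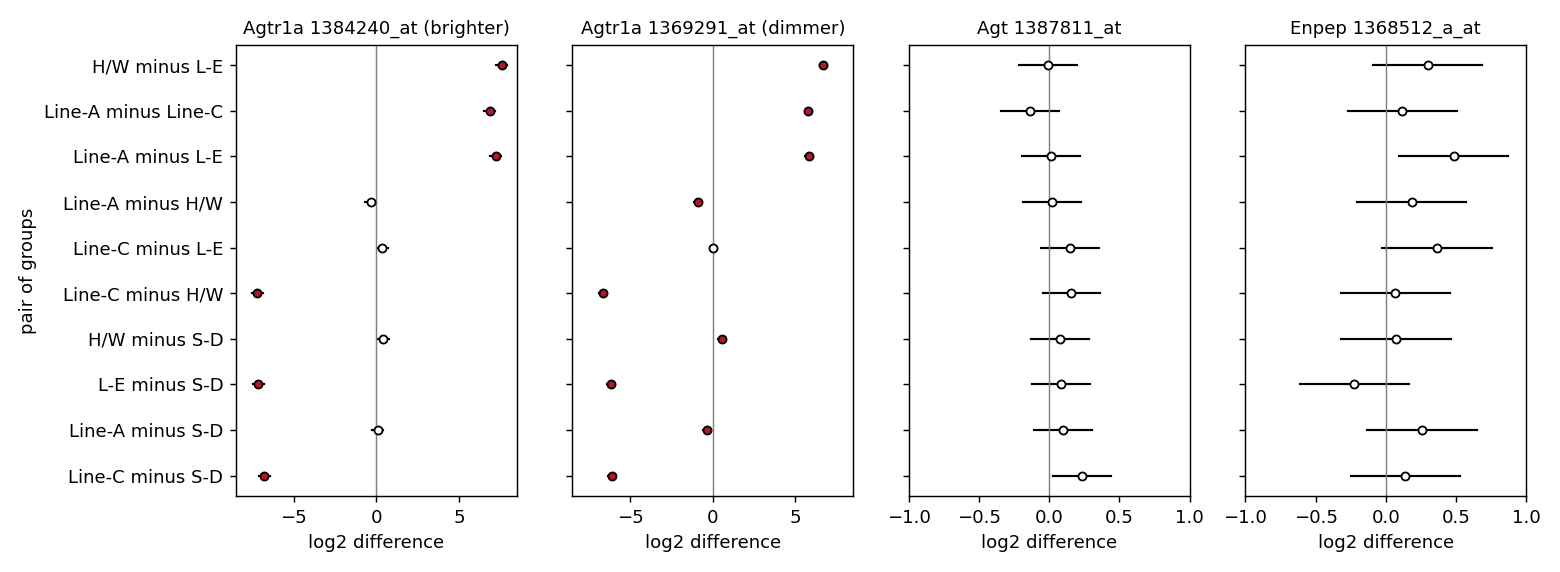
Log2 differences (x axis) between the first and the second group of each of the 10 pairs (rows) for the 4 member ProbeSets that reached the limit of expression, with 95% intervals from limma; filled points were called at 5% FDR. The x axis spans 8.5 units to each side for *Agtr1a* and 1 unit to each side for *Agt* and *Enpep*. *Agtr1a* differs in each pair that sets a group of H/W, Line-A and S-D against L-E or Line-C, and no *Agt* or *Enpep* point is filled.

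*Agtr1b*, the second AT1 receptor gene, read 2.44 to 2.65 on all arrays, and *Agtr2* read 2.58 to 2.82 on 1 ProbeSet and 2.09 to 2.23 on the other. These signals were below the limit in the groups where *Agtr1a* was low as well as in those where it was high, with group means of *Agtr1b* of 2.49 in L-E and 2.59 in Line-C. Line-A minus S-D was called for *Agtr1b* (0.09) and for both ProbeSets of *Agtr2* (0.10 and 0.07), and Line-A minus L-E for *Agtr1b* (0.10) and the first of these for *Agtr2* (0.10). All these differences are of at most 0.10 log2 units, in the pairs where the most ProbeSets were called. None of these calls remained with equal array medians, with scan day as a random block or at 1% FDR. Under array weights, or without H/W replicate 3, each of these ProbeSets was called in 6 pairs. The shares of all ProbeSets called under those settings were not worked out. Over the 20 arrays the mean signal of the 7 member ProbeSets below the limit went with the array median (r = 0.72, a description over arrays that share strain and scan day). H/W replicate 3 was the lowest of its group on 6 of these 7 ProbeSets.

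*Agtrap*, the receptor-associated protein, also read below the limit, at 2.55, 2.13, 2.29 and 1.86 in H/W, 1.87, 2.15, 2.27 and 1.87 in Line-A, 1.83, 1.80, 1.67 and 1.79 in L-E, 1.83, 1.73, 1.85 and 1.70 in Line-C, and 1.81, 1.99, 1.82 and 1.82 in S-D. H/W and Line-A held the highest arrays. H/W minus L-E was 0.44 (adjusted p = 0.0493) and Line-C minus H/W was -0.43 (adjusted p = 0.0487, where 3.89% of ProbeSets were called). Neither call was firm, as H/W minus L-E passed in 4 of 10 other settings and in 5 of 20 fits that left out 1 array, and Line-C minus H/W in 1 of 8 and 3 of 20. Line-A minus Line-C was not called.

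The rest of the pathway was read from lists of genes. Of 19 genes for other angiotensin peptidases and receptors, 13 were on the array and 6 reached a group mean of 4, and *Mas1*, the receptor of angiotensin 1-7, did not. In H/W minus L-E 1 of the 6 was lower and none higher, against 6.58% of ProbeSets at that level called. For these shares, here and below, that level is a mean of at least 4 in a group of the pair. Listed genes needed such a mean in any of the groups, as did the ProbeSets whose medians are set beside theirs. The median difference of the 6 was -0.03 against 0.01 over all ProbeSets with a group mean of at least 4. In Line-A minus Line-C none of the 6 was called, against 2.94%, with a median of -0.15 against 0.00. The gene called was *Ctsd*, cathepsin D, a lysosomal protease, at 9.27 ± 0.34 in H/W and 9.91 ± 0.22 in L-E (-0.64, adjusted p = 0.0365). *Ctsd* was also lower than in L-E in Line-A (8.84 ± 0.21, difference -1.06, adjusted p = 0.000489) and in wild-type Line-C (9.29 ± 0.25, difference -0.61, adjusted p = 0.0229), and lower in Line-A than in S-D (-0.61, adjusted p = 0.0171). *Anpep*, which turns angiotensin III into angiotensin IV, had 9.05 ± 0.15 in Line-A and 9.55 ± 0.18 in S-D (-0.50, adjusted p = 0.0184). *Nln*, neurolysin, which cleaves small peptides such as neurotensin, was 0.48 higher in Line-A than in S-D (adjusted p = 0.0466). Of the kinin genes, 2 of the 4 on the array reached the limit, and *Klkb1*, plasma prekallikrein, was lower in Line-C (11.31) than in L-E (11.95, adjusted p = 0.038).

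Downstream of the receptor, 33 of 36 signalling genes were on the array and 14 had a group mean of 4. In H/W minus L-E 1 of the 14 was lower and none higher, against 6.58% of all ProbeSets at that level called. It was *Arrb2*, the arrestin that takes the receptor out of signalling (-0.37, adjusted p = 0.0034). In Line-A minus Line-C none of the 14 was called, against 2.94%. *Arrb2* was higher in L-E than in each of the other 4 groups, as Line-A minus L-E was -0.38 (adjusted p = 0.00114), Line-C minus L-E was -0.34 (adjusted p = 0.00336) and L-E minus S-D was 0.41 (adjusted p = 0.000554). In L-E minus S-D, the contrast with the same *Ahr* type and unlike *Agtr1a*, 3 were higher and 3 lower, against 19.2% of all ProbeSets at that level. *Rhoa*, the small GTPase of contraction, was between 9.74 and 9.86 in the other 4 groups and at 9.06 in S-D, each pair with S-D called (largest adjusted p = 0.000297). *Prkcb*, a protein kinase C, was lower in each of the other 4 groups (4.05 to 4.21) than in S-D (4.66, largest adjusted p = 0.0115). *Gnai2*, an inhibitory G protein subunit, was lower in Line-A (7.08) and Line-C (7.10) than in L-E (7.66). Against S-D (7.85) it was lower in Line-A (-0.77, adjusted p = 0.00115), Line-C (-0.75, adjusted p = 0.00211) and H/W (-0.51, adjusted p = 0.0311). *Gna12*, another G protein subunit, was higher in H/W, Line-A and L-E than in S-D. *Cyba*, a subunit of the NADPH oxidase, was lower by 0.20 to 0.21 in each of the other groups than in S-D. *Itpr2*, an inositol trisphosphate receptor found in hepatocytes, was higher in Line-C than in S-D by 0.61 (adjusted p = 0.0146), and *Prkcz* was higher in both lines than in L-E. Of these genes none followed the split of *Agtr1a*.

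Of 3 receptor partners, *Mtus1*, which binds AT2, was lower in Line-A (8.17) and Line-C (8.07) than in L-E (8.53), and higher in L-E than in S-D (7.98, difference 0.55, adjusted p = 0.00738). *Gabarap*, which binds AT1 and carries it to the cell surface, was lower in Line-A (11.22, adjusted p = 0.00315) and in L-E (11.31, adjusted p = 0.0474) than in S-D (11.50). Of 12 expressed regulators of *Agt* and *Agtr1* transcription, none was called in H/W minus L-E or in Line-A minus Line-C, where 6.58% and 2.94% of all ProbeSets at that level were called. *Cebpa*, a factor of hepatocyte differentiation, stood at 8.62 in H/W, 7.86 in Line-A, 9.09 in L-E, 7.74 in Line-C and 8.16 in S-D, lower in each line than in each parent. Like every difference given for a gene in this paragraph, that one cannot be told apart from scan day. *Usf2*, an E-box factor, was lower in Line-A (-0.59) and Line-C (-0.58) than in H/W, *Stat3*, the mediator of the acute-phase response, was lower in Line-A (-1.21) and Line-C (-1.10) than in L-E, and *Rela*, the NF-kB subunit, was lower in Line-A than in S-D (-0.18).

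The genes of fibrosis and vessel inflammation that angiotensin II is known to raise differed mainly between S-D and the rest. Of 14 such genes 13 were on the array and 7 reached the limit. In H/W minus L-E 1 of the 7 was higher and none lower, against 6.58% of all ProbeSets at that level called, and in Line-A minus Line-C none was called, against 2.94%. In Line-A minus S-D 4 of the 7 were lower and none higher. Their median was -0.996 against 0.04 over all ProbeSets with a group mean of at least 4. Of all ProbeSets at that level, 33% were called in that pair and 16.1% were called lower. In L-E minus S-D 4 of the 7 were lower and none higher, with a median of -1.61 against -0.02. There 19.2% of all ProbeSets at that level were called and 10.9% were called lower. *Col1a1* was 4.73 ± 0.33 in H/W, 4.59 ± 0.05 in Line-A, 4.46 ± 0.27 in L-E, 5.02 ± 0.46 in Line-C and 7.21 ± 1.49 in S-D (SD, n = 4), so that the S-D rats varied most. *Col3a1* was 8.99, 9.23, 8.75, 9.52 and 10.85 in the same order, and *Vcam1*, an adhesion molecule of activated endothelium, was below the limit in 4 groups and at 5.09 in S-D. *Vcam1* was among the 7 through S-D alone, so in a pair with S-D it could be called only as lower there. In H/W minus L-E and Line-A minus Line-C it was below the limit in both groups. It therefore lay outside the ProbeSets of the shares given for those pairs. It was 1 of the 4 called lower in Line-A minus S-D and in L-E minus S-D, and it entered both medians. *Timp1*, an inhibitor of matrix proteases, was lower in Line-A (4.47) than in S-D (4.92, adjusted p = 0.046). The stellate and endothelial markers given above moved with these genes in S-D, the stellate list itself holds *Col1a1* and *Col3a1*, and the part of those cells in the result was not tested. The log2 difference between the 3′ and 5′ control ProbeSets of GAPDH, a sign of RNA integrity, was 0.49 ± 0.22 in H/W, 0.34 ± 0.12 in Line-A, 0.28 ± 0.04 in L-E, 0.45 ± 0.05 in Line-C and 0.56 ± 0.02 in S-D (SD, n = 4), so that S-D had the highest mean, and its part in the result was not tested. *Icam1*, a leukocyte adhesion molecule, was different, with 6.90 in H/W, 6.70 in Line-A, 5.55 in L-E, 5.69 in Line-C and 7.17 in S-D. H/W stood above L-E by 1.35 (adjusted p = 0.00477), while Line-A minus Line-C was 1.01 (adjusted p = 0.0529).

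Genes that followed *Agtr1a* most closely over the 20 arrays were sought among 6350 genes with a group mean of at least 4. The correlations are descriptions, since arrays of a group share strain and scan day. Both *Agtr1a* ProbeSets correlated with r = 0.995. The 10 genes most like the brighter one were *Rab14* (r = 0.955), *Marveld1* (0.952), *Bckdhb* (0.927), *Sqor* (0.874), *Icam1* (0.870), *Hyou1* (0.862), *Cyp2c6v1* (0.856), *Obp3* (0.846), *Mthfd1* (0.815) and *Nit2* (0.804). The same 10 came first with the dimmer ProbeSet in its place, and 5 of them with Spearman correlation. *Rab14*, a GTPase of endosomal traffic, was 6.44 ± 0.62 in H/W, 6.38 ± 0.20 in Line-A, 3.98 ± 0.42 in L-E, 3.63 ± 0.44 in Line-C and 6.77 ± 0.40 in S-D. *Marveld1* was 6.89 ± 0.78, 8.46 ± 1.07, 2.30 ± 0.00, 2.53 ± 0.26 and 7.55 ± 0.35 in the same order. Like those of *Agtr1a*, its means were below the limit in L-E and Line-C. *Bckdhb*, a subunit of the enzyme that oxidises branched-chain keto acids, was 10.58 ± 0.39, 11.15 ± 0.09, 9.29 ± 0.18, 9.57 ± 0.04 and 10.98 ± 0.13. The genes most opposite were *Hypk* (r = -0.923), *F10* (-0.888), *Fxyd2* (-0.858), *Dram2* (-0.855) and *Atl2* (-0.849). None of these 15 genes lies on chromosome 17, which holds *Agtr1a*, and 2 lie on chromosome 6, which holds *Ahr* (*Mthfd1* and *Atl2*). The share of all array genes on these chromosomes was not counted, so neither count is a result about linkage.

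By a stricter description chosen after the values were seen, 8 of 15923 ProbeSets were called higher in each of H/W, Line-A and S-D than in each of L-E and Line-C. They belong to 6 genes, *Agtr1a*, *Rab14*, *Marveld1*, *Bckdhb*, *Sqor* and *Cyp2c6v1*, and *Agtr1a* and *Rab14* have 2 each. In reverse 3 ProbeSets were called lower, of *Hypk*, *Fxyd2* and *Dram2*. *Sqor*, a mitochondrial enzyme of sulfide oxidation, was 10.48 ± 0.19 in H/W, 10.03 ± 0.16 in Line-A, 7.01 ± 0.18 in L-E, 7.34 ± 0.19 in Line-C and 8.40 ± 0.20 in S-D, so that S-D lay between the others. *Cyp2c6v1*, a liver cytochrome P450, was 13.78, 13.76, 13.29, 12.92 and 13.66 in the same order.

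**Figure D4:**
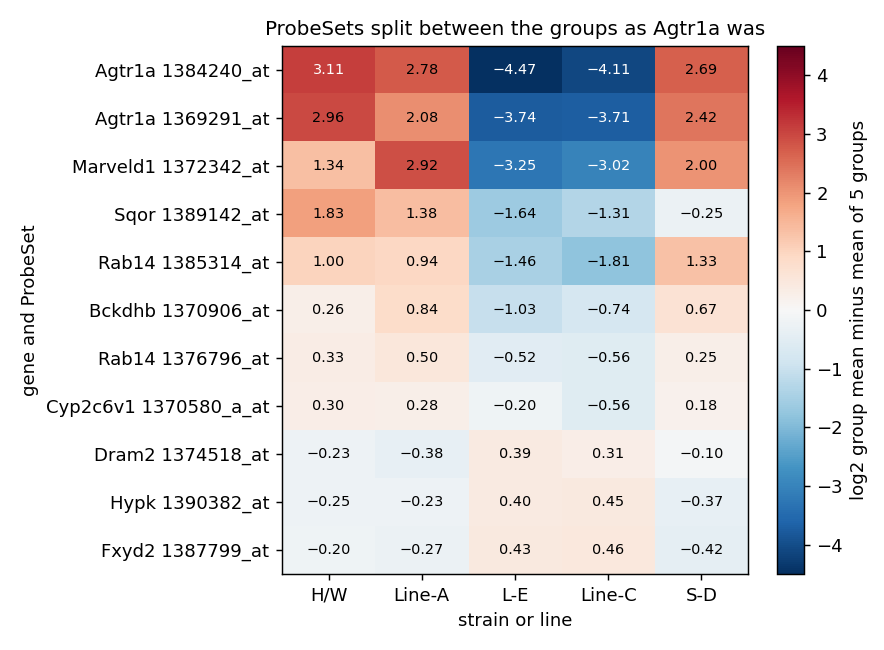
Group means of log2 signal minus the mean of the 5 groups (colour and numbers) for the 11 ProbeSets (rows) that were called in the same direction between each of H/W, Line-A and S-D and each of L-E and Line-C; columns are the strains and lines. The first 2 rows, *Agtr1a*, stand at 3.11 and 2.96 in H/W and at -4.47 and -3.74 in L-E, and the last 3 rows run the other way.

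No gene beside *Agtr1a* was seen to share its split, but most of them were not expressed. The nearest array genes on chromosome 17 in the order of the current rat annotation were *Foxc1*, *Foxq1*, *Exoc2*, *Dusp22* and *Uqcrfs1* on one side and *Cdkal1*, *Sox4*, *Prl5a1*, *Prl4a1* and *Prl2a1* on the other. None of the 10 was called in H/W minus L-E, Line-A minus Line-C or L-E minus S-D, where 3.31%, 1.39% and 9.59% of all ProbeSets were called. Of these, only *Exoc2*, *Dusp22* and *Uqcrfs1* had a group mean of at least 4. The others were under the limit in every group and could hardly show a split. *Uqcrfs1*, a subunit of respiratory complex III, was 10.93 in H/W, 10.96 in Line-A, 11.12 in L-E, 11.04 in Line-C and 10.98 in S-D. Of the 10 array genes around *Agt* on chromosome 19 none was called in H/W minus L-E or Line-A minus Line-C. *Galnt2* (-0.48), *Ttc13* (-0.98) and *Fam89a* (-1.32) were lower in L-E than in S-D, where 9.59% of all ProbeSets were called. *Fam89a* reached the limit only in S-D (4.08). *Agt*, in the midst of these genes, differed by 0.08 in L-E minus S-D (interval -0.12 to 0.29). *Agtr1b* and *Enpep* lie on chromosome 2, *Ace* on 10, *Agtrap* on 5 and *Agtr2* on X.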

How the data were processed

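The authors made the deposited values with GC-RMA, as log2 signals per ProbeSet, and by the submitters' processing notes used R 2.6.1, affy 1.12.0 and GCRMA 2.10.0. GC-RMA corrects for background by probe GC content and sets arrays to a common distribution, which compresses low signals, so that values under 4 were read as not expressed. The deposited array headers served only to find scan days. Genes were named from the platform annotation. Linear models were fitted with limma 3.58.1 in R 4.3.3, with statmod 1.5.0 for the random block, to all 20 arrays with 1 mean per group. Pairs, the *Ahr* coefficient and the interaction were called at 5% FDR and the F-test at 0.1% FDR. W/T came from a balanced mixed model. The precision is limited by 4 rats per group. The steps were tested on simulated data. Members, lists and tests were chosen with earlier results of these data known. Named were every member ProbeSet, the listed genes that passed a test with a group mean of at least 4 (up to 8 a list), the 10 genes most like and 5 most opposite to *Agtr1a*, and 5 array neighbours on each side of *Agtr1a* and *Agt*. Alternatives were limma's trend, array weights, quantile normalization, equal medians, a replicate block, a filter at 4, only the groups compared, scan day as a block, 1% FDR and leaving out each array.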

Additional observations from a re-analysis of the deposited data

Results flagged for a closer look

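In 4 of 55 sets of 4 arrays (11 ProbeSets in 5 groups) 1 array stood apart from its group by Dixon's ratio of its gap to the range, where chance flags about 1 set in 20. The expressed ProbeSet of *Enpep* in S-D had a ratio of 0.871, with replicate 1 at 8.98 and the next array at 8.31. The other 3 were below the limit of expression. The brighter ProbeSet of *Ace* in Line-A had 0.831 (replicate 4 at 3.03, next 2.92), the second ProbeSet of *Enpep* in L-E had 0.887 (replicate 4 at 2.55, next 2.47), and *Agtrap* in S-D had 0.905 (replicate 2 at 1.99, next 1.82). The difference between variant and wild-type *Ahr* was larger in the parents than in the lines for the dimmer *Agtr1a* ProbeSet, by 0.917 (limma interaction, adjusted p = 0.00316).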

How the results depend on the processing

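The 2 *Agtr1a* ProbeSets stayed called in H/W minus L-E, in Line-A minus Line-C and by the *Ahr* coefficient in all settings tried, with differences over the other settings of 7.51 to 7.66 and 6.76 to 6.93 on the brighter ProbeSet and of 6.64 to 6.84 and 5.73 to 5.83 on the dimmer one. The count of calls over the 10 pairs, 24 for the member ProbeSets, was 51 under array weights, 14 at 1% FDR, and 15 with a filter at a mean of 4, with scan day as a random block, and, by a count added after seeing the data, over calls with a group mean of at least 4. The cause of these changes was not tested. Of the 24, the brighter *Agtr1a* ProbeSet held 6 and the dimmer one 9. In the main fit the share of all ProbeSets called ran from 1.39% in Line-A minus Line-C to 37.5% in Line-A minus S-D. Shares over all ProbeSets were not worked out under the other settings, so these counts and those that follow are not results about the members. Leaving out 1 array gave 15 to 47, with 47 without H/W replicate 3 and 15 without S-D replicate 2 or 3. The F-test called 6 members under array weights and 2 in all other settings. The interaction called 6 members under array weights, and 1 to 2 with 1 array left out (2 without L-E replicate 1). Spearman correlation kept 5 of the 10 genes most like *Agtr1a*. Near-zero differences turned sign: Line-A minus S-D on the brighter ProbeSet was -0.0042 under array weights, and Line-C minus L-E on the dimmer one was -0.0273 after quantile normalization and -0.0492 with equal medians. With the limit at 5 the bounds on the brighter ProbeSet were 69.8-fold for H/W over L-E and 55.3-fold for Line-A over Line-C. On the dimmer one they were 21.0-fold and 11.4-fold with the limit at 5, and 83.9-fold and 45.5-fold with the limit at 3.

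Replicate numbers are shared between groups only as numbers. Deviations of same-numbered arrays had a median correlation of -0.0039, from -0.31 to 0.19, over 40 pairs of arrays, so they do not pair the rats. With the replicate block the count of calls was 20, and H/W minus L-E on the brighter ProbeSet was 7.58. Scan day as a fixed block allowed only H/W minus L-E, Line-A minus Line-C, the interaction and the *Ahr* coefficient, and the F-test and the S-D pairs were not run with it. Signals under the limit set what can be said of *Ace*, *Agtr1b*, *Agtr2* and *Agtrap*.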
